A study of Mus musculus with 6 samples.

Results

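Genes of the amino acid transporter families were examined in mouse liver with and without overexpression of TFEB. The members were all genes with a single symbol that begins with Slc1a, Slc3a, Slc6a, Slc7a, Slc36a, Slc38a or Slc43a in the array's probe annotation, a rule on names that uses no measured value. The rule found 43 of 12393 genes, read by 67 probe sets. There were 6 Slc1a, 2 Slc3a, 15 Slc6a, 13 Slc7a and 6 Slc38a genes, 1 Slc43a gene, which was Slc43a3, and 0 Slc36a genes. Slc36a1, Slc38a7, Slc38a9 and Slc43a1 were not analysed here.

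All mice were wild-type C57 animals that were 1 month old. One group of 3 mice received an adenoviral vector to overexpress TFEB, a transcription factor of lysosomal genes, and the other 3 mice were not injected. Each liver was measured on 1 Affymetrix array, as a biological replicate per the labels. The sources used here do not give the promoter or dose of the vector, or the time from injection to sampling. The labels name no liver that received an empty vector, so effects of the injection, the vector and TFEB cannot be told apart.

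Amino acid transporters move amino acids, and in some members neurotransmitters, osmolytes or creatine, across cell membranes. Slc1a genes encode sodium-coupled carriers of glutamate or small neutral amino acids, and Slc6a genes encode sodium- and chloride-coupled carriers of GABA, glycine, taurine, creatine, monoamines and neutral amino acids. Most Slc7a proteins are light chains that need a heavy chain from the Slc3a family to reach the membrane, while others carry cationic amino acids on their own. Slc38a genes encode sodium-coupled carriers of glutamine, alanine and other neutral amino acids, which hepatocytes take up from portal blood for catabolism, urea synthesis and gluconeogenesis. TFEB is itself controlled by the kinase complex mTORC1, which senses amino acids at the lysosome.

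Some measurements of the whole series bear on every value given here. Correlations between arrays across probe sets ran from 0.997 to 0.998 among the not-injected livers, from 0.992 to 0.997 among the injected livers and from 0.975 to 0.988 between them. The only Tfeb probe set averaged 7.52 ± 0.06 in not-injected and 7.58 ± 0.18 in injected livers on the log2 scale (SD, n = 3 each), and the sources used here do not say whether its probes detect the transgene. Control transcripts added to the RNA before labelling (poly-A spike-ins, 24 probe sets) differed by a median of -0.44, injected minus not-injected, and those added at hybridisation (18 probe sets) by -0.32. A batch in labelling or hybridisation and the injection cannot be told apart. Of 6 sinusoidal endothelial marker genes 4 were higher in injected livers and 0 lower. By the same limma test, described below, 14.2% of all genes were higher and 13.9% lower. The mean log2 value of the 6 was 8.30 to 8.36 in the not-injected and 8.94 to 9.13 in the injected arrays. Lyve1 (2.10) and Stab2 (0.96) rose most. Pecam1 (0.41) and Clec4g (0.39) rose less, and Kdr (0.22) and Stab1 (0.15) were not called. Pecam1 was under the lower quartile on 2 arrays. Of 6 hepatocyte markers 1 was higher and 1 lower, and of 7 Kupffer cell and macrophage markers 2 were higher and 1 lower. Of 3 kidney markers 0 were higher and 1 lower, Umod (-0.29), which was under the lower quartile on all arrays. The mean of the kidney markers was 5.42 to 5.68 in the not-injected and 5.41 to 5.52 in the injected arrays. Single markers of other cells moved more, with Alas2 (erythroid) at -1.60, Cela1 (pancreas) at -1.19 and S100a8 (neutrophil) at 0.74, all called. The other measured erythroid and pancreas markers were not called, Hba-a1 at -0.02, Prss2 at -0.07 and Cpa1 at -0.03. Nor were the other neutrophil markers, S100a9 at 0.54, Mpo at -0.05 and Camp at -0.02. Hba-a1 and Mpo were under the lower quartile on all arrays. Fewer cells of a type and less RNA per cell cannot be told apart in whole liver, and the part of these shifts in the results below was not tested.

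Among the 43 transporter genes, 12 differed between the groups, 4 higher and 8 lower in injected livers (limma, Benjamini-Hochberg adjusted p under 0.05 over all genes). Slc6a8, which carries creatine, rose most, and Slc6a13, which carries GABA and taurine, fell most. Over all 12393 genes 28.1% passed the same test, 14.2% higher and 13.9% lower, beside 27.9% of the members, so the share of members called was close to the background with all arrays and genes. With a change of at least 1.5-fold as well, 4 members were higher and 4 lower, beside 6.3% higher and 3.3% lower (9.6% in all) of all genes. The values of the groups did not overlap in 6 members that were higher and 14 that were lower in injected livers, beside 20.1% and 26.1% (46.2% in all) of all genes. Of the 8 lower members, 4 fell by less than the median shift of the poly-A spike-ins. The median difference of the members was -0.08 on the log2 scale, and that of all genes -0.05.

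**Figure D1:**
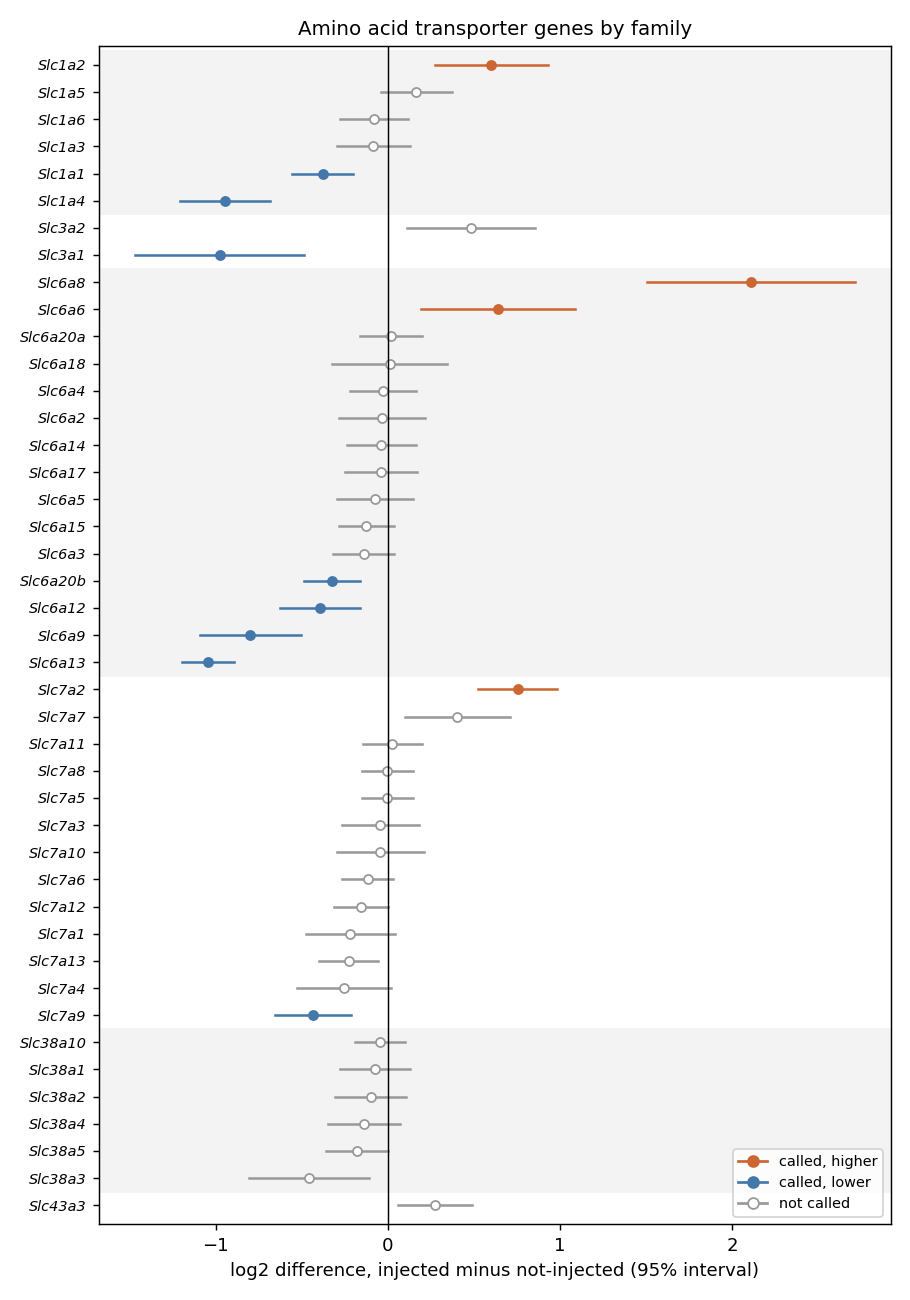
Log2 difference, injected minus not-injected, of each of the 43 transporter genes (horizontal axis) with its 95% interval from limma, grouped by family (vertical axis, n = 3 arrays per group). Filled points passed the test (4 higher, 8 lower) and open points did not; Slc6a8 lies farthest to the right at 2.11 and Slc6a13 farthest to the left at -1.04.

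The number of calls moved with single arrays. Leaving out injected replicate 2 gave 7 higher and 14 lower members, which was 48.8% of the members beside 35.3% of all genes. There were 2 higher and 5 lower without not-injected replicate 2 (16.3% of members, 15.9% of all genes) and 2 and 6 without not-injected replicate 3 (18.6% and 16.4%). Without injected replicate 1 there were 3 and 5 (18.6% and 17% of all genes), and without injected replicate 3 there were 2 and 7 (20.9% and 19%). The share over all genes thus moved with that of the members. With array weights 46.5% of the members and 38% of all genes were called. Genes with a mean at or above the median were also fitted and adjusted on their own. There 6 members were higher and 5 lower of 15 (73.3%), beside 45.7% of 6197 genes. The difference between the shares was not tested. Injected replicate 2 was the injected array nearest to the not-injected mean in 8 of the 12 called members (66.7%) and in 24 of all 43 (55.8%), beside 62.7% of called genes and 49.8% of all genes.

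By family, the Slc1a genes gave 1 higher and 2 lower of 6, with a median difference of -0.08. The Slc6a genes gave 2 higher and 4 lower of 15 (median -0.04). Among Slc7a genes 1 was higher and 1 lower of 13 (median -0.04), and of the Slc3a genes 0 were higher and 1 lower of 2 (median -0.25). With 1 array left out the Slc3a median was -0.11 when not-injected replicate 1 was left out and -0.32 when replicate 2 of that group was. The Slc1a median ran from -0.04 (without injected replicate 3) to -0.17 (without injected replicate 2). None of the 6 Slc38a genes (median -0.12) and not the single Slc43a gene (0.27) passed limma, although 1 of each did at an unadjusted p under 0.05. Without injected replicate 2, 3 Slc38a genes passed, Slc38a3, Slc38a4 and Slc38a5, all lower, and Slc43a3 passed as higher; the Slc7a genes then gave 2 higher and 4 lower. The Slc6a genes gave 1 higher and 2 lower without not-injected replicate 2 or 3 or injected replicate 1. Families share the same arrays, and differences between their shares were not tested. Values lay below the lower quartile of each of the 6 arrays (5.46 to 5.56) in 13 members, of which 1 was called. Of the other 30 members 11 were called (36.7%), and of all 10355 genes chosen in the same way 32.5%.

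Carriers of creatine and taurine were among the members that rose. Slc6a8, the creatine transporter, read 7.62, 7.57 and 7.36 on the log2 scale in not-injected replicates 1 to 3 and 9.85, 8.96 and 10.05 in injected replicates 1 to 3. Every injected array lay above every not-injected array, and injected replicate 2 was the lowest of the injected. This was a 4.31-fold rise (2.11 ± 0.26 on the log2 scale, SE, n = 3 per group, limma adjusted p = 0.00152). Its other probe set rose by 1.22 ± 0.27 (adjusted p = 0.0159).

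Genes of creatine synthesis and use, picked after the values were seen, moved in different directions. Gamt, which makes creatine, fell by 0.92 on the log2 scale (adjusted p = 0.00406), and Gatm, which makes its precursor, differed by 0.13 (adjusted p = 0.303). Ckb, a creatine kinase, rose by 1.34 (adjusted p = 0.0287). It read 7.58, 7.47 and 7.33 without injection and 9.36, 7.85 and 9.18 with it, so injected replicate 2 rose least. Of the other creatine kinases Ckmt1 fell by 0.25 (adjusted p = 0.0396). Ckm (-0.21, adjusted p = 0.0928) and Ckmt2 (0.01, adjusted p = 0.956) did not pass.

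Slc6a6, which carries taurine, read 9.87, 9.52 and 9.58 without injection and 10.50, 9.85 and 10.54 with it. The groups overlapped, because injected replicate 2 lay just below not-injected replicate 1. The rise was 1.56-fold (0.64 ± 0.19, adjusted p = 0.0428). It rested on 1 of 3 probe sets: the other two read -0.01 and -0.21, and their mean with the first gave 0.14 (adjusted p = 0.164). With any one array left out it passed only without injected replicate 2 (0.86, adjusted p = 0.00109), and it did not pass without variance moderation (adjusted p = 0.158). The taurine genes Csad, a synthesis enzyme, and Baat, which conjugates bile acids with taurine or glycine, were picked after the values were seen. They fell by 0.66 (adjusted p = 0.018) and 0.57 (adjusted p = 0.00487). Cdo1, picked with them, differed by -0.20 (adjusted p = 0.104).

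The GABA and betaine carriers fell. Slc6a13, the GABA transporter of hepatocytes that also takes taurine, and Slc6a12, the betaine and GABA transporter, are neighbours on chromosome 6 and both were lower. The 250 bases before the start of each are shown because these adjoining genes fell together. They are from RefSeq, GRCm38.p6, plus strand, at chr6:121300038-121300287 for Slc6a13 and chr6:121342324-121342573 for Slc6a12, with no part in capitals.
Slc6a13: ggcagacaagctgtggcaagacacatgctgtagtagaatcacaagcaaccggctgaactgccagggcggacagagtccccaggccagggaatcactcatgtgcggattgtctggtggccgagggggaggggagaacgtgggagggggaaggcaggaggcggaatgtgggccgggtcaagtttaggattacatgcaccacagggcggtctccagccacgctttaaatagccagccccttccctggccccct
Slc6a12: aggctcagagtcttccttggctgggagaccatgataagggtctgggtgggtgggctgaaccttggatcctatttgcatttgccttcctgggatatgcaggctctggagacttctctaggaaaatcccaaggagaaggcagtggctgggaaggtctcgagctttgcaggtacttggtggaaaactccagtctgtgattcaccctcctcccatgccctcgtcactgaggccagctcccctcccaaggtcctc
Neither window held CACGTG (the E-box core bound by TFEB) or TGATGNAA (a composite C/EBP and ATF motif), each searched on both strands. These letters were found in 6.02% and 3.45% of all 32851 promoter windows of that length, and neither motif contains the other.

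Slc6a13 read 11.42, 11.31 and 11.35 in not-injected livers and 10.29, 10.38 and 10.29 in injected livers. Each group was tight and the injected arrays lay about 1 log2 unit lower. The fall was 2.06-fold (-1.04 ± 0.07, SE, adjusted p = 0.00011), the smallest p among the members, and it passed with any one array left out. Slc6a12 was lower by 0.39 ± 0.10 (adjusted p = 0.0244), with no overlap of the groups. Its call did not hold with the replicate number as a block (adjusted p = 0.0531), nor without not-injected replicate 2 (0.0579) or 3 (0.0878) or injected replicate 1 (0.052) or 3 (0.0615), nor without variance moderation (0.093). Abat, which breaks down GABA, differed by -0.04 (adjusted p = 0.671), and Bhmt, which uses betaine, fell by 0.30 (adjusted p = 0.024). Chdh (0.04, adjusted p = 0.833) and Aldh7a1 (-0.22, adjusted p = 0.0792), picked with them, did not pass. All of these were picked after the values were seen.

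Slc6a9, a glycine transporter, read 9.44, 9.62 and 9.25 without injection. In injected livers it read 8.45, 8.63 and 8.83. No values overlapped, and the fall was 1.74-fold (-0.80 ± 0.13, adjusted p = 0.00408). Its other probe set gave -0.19 (adjusted p = 0.238). Shmt1 and Gldc, enzymes of serine and glycine metabolism that were picked after the values were seen, fell by 0.75 (adjusted p = 0.00199) and 0.46 (adjusted p = 0.00225). Picked with them, Gnmt and Gcsh fell by 0.49 and 0.28, and Glyat differed by 0.20 (adjusted p = 0.0593).

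Slc6a20b was lower by 0.33 ± 0.07 (adjusted p = 0.0135). It did not pass without not-injected replicate 2 (adjusted p = 0.0544) or 3 (0.0576) or injected replicate 1 (0.0512). Slc6a20a, its neighbour and close paralog, was under the lower quartile on all arrays and differed by 0.02 (adjusted p = 0.886); cross-hybridisation between the related sequences was not tested. The other 8 Slc6a genes did not pass. They included the monoamine carriers Slc6a2, Slc6a3 and Slc6a4, of which Slc6a3, the dopamine transporter, had the smallest p of the uncalled family members (-0.14, adjusted p = 0.199).

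**Figure D2:**
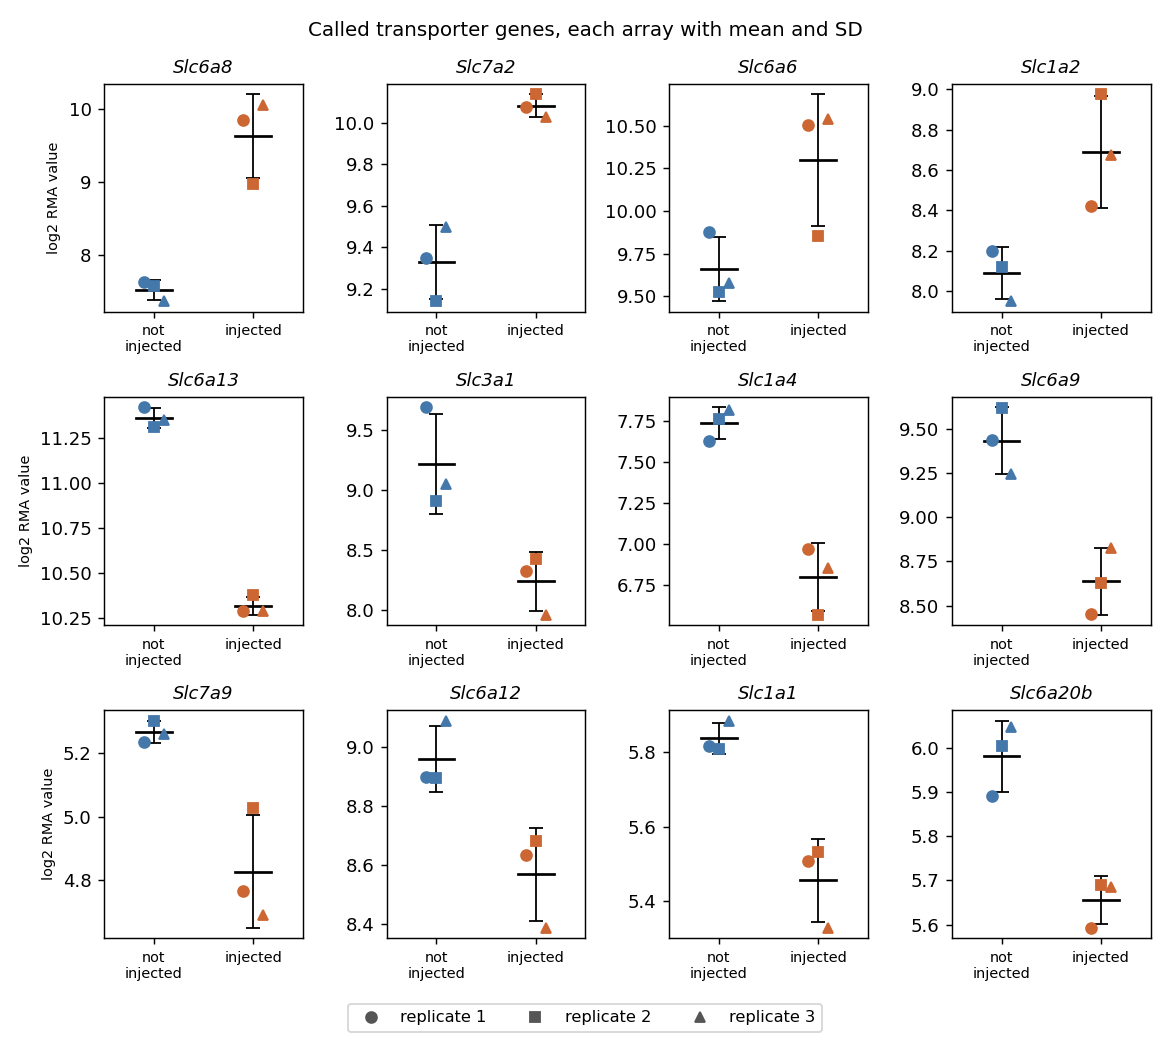
Log2 value of each of the 12 called transporter genes on every array (vertical axis, a separate range in each panel), with not-injected livers on the left and injected livers on the right. Symbols mark replicates 1 to 3 and bars the group mean and SD (n = 3); the groups are apart in 11 of the 12, and in Slc6a6 they overlap.

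Among glutamate and neutral amino acid carriers of the Slc1a family, Slc1a2 rose and Slc1a4 and Slc1a1 fell. Slc1a2 encodes the glutamate transporter that in liver marks hepatocytes around the central vein. It read 8.20, 8.12 and 7.95 without injection and 8.42, 8.98 and 8.67 with it. All injected values were higher, with injected replicate 1 nearest to the other group. The rise was 1.52-fold (0.60 ± 0.14, adjusted p = 0.0186). It did not pass without not-injected replicate 2 (adjusted p = 0.0589) or 3 (0.0702), without injected replicate 3 (0.0514) or without variance moderation (0.0986).

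The pericentral gene list did not move with Slc1a2. Of 16 pericentral genes 8 were lower and 0 higher by limma (median -0.39), while at an unadjusted p under 0.05 there were 9 and 1. The 50% called stood beside 28.1% of all genes. Genes with a mean at or above the median gave 45.7% in their own fit and adjustment. The list share is from the fit of all genes and includes genes below that level, so these shares are not alike. Without not-injected replicate 2, 5 were lower, without variance moderation 4, and without injected replicate 1 or 3, 1 was higher. Cyp27a1, a sterol hydroxylase, fell by 0.66 and Nkd1, an inhibitor of Wnt signalling, by 0.46. Glul, the glutamine synthetase found next to the central vein, differed by 0.06 ± 0.07 (adjusted p = 0.502).

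Slc1a4, a carrier of alanine, serine, cysteine and threonine, read 7.63, 7.77 and 7.82 in not-injected livers and 6.97, 6.57 and 6.85 in injected livers. The groups were clearly apart, and the fall was 1.92-fold (-0.94 ± 0.11, adjusted p = 0.00132). It held with any one array left out. A further probe set fell by 0.32 (adjusted p = 0.0252) and the third read -0.09 (adjusted p = 0.498). Slc1a1, which carries glutamate and cysteine, fell by 0.38 ± 0.08 (adjusted p = 0.00994) on 1 of 3 probe sets. Its injected values of 5.51, 5.53 and 5.33 lay near the lower quartile, 1 array below it, so the size of that fall is not exact. The other probe sets read -0.04 and -0.01, with all arrays below the lower quartile, and the mean of the 3 gave -0.14 (adjusted p = 0.131). The glutamine carrier Slc1a5, closest to Slc1a4 in function, differed by 0.16 ± 0.09 (adjusted p = 0.203).

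Slc7a2, a cationic amino acid transporter that supplies hepatocytes with arginine, lysine and ornithine, rose. It read 9.35, 9.14 and 9.50 in not-injected livers and 10.08, 10.14 and 10.03 in injected livers. The injected values lay close together and above all others. This was a 1.69-fold rise (0.75 ± 0.10, adjusted p = 0.00193), which held with any one array left out. A further probe set rose by 0.78 and the third read 0.30 (adjusted p = 0.335). Arg1, the arginase of the urea cycle, was picked after the values were seen and fell by 0.71 (adjusted p = 0.00351). Nos2, picked with it, differed by -0.30 (adjusted p = 0.152). The related cationic carrier genes Slc7a1 and Slc7a3 differed by -0.22 (adjusted p = 0.177) and -0.04 (adjusted p = 0.758), and Slc7a1 was under the lower quartile on all arrays.

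**Figure D3:**
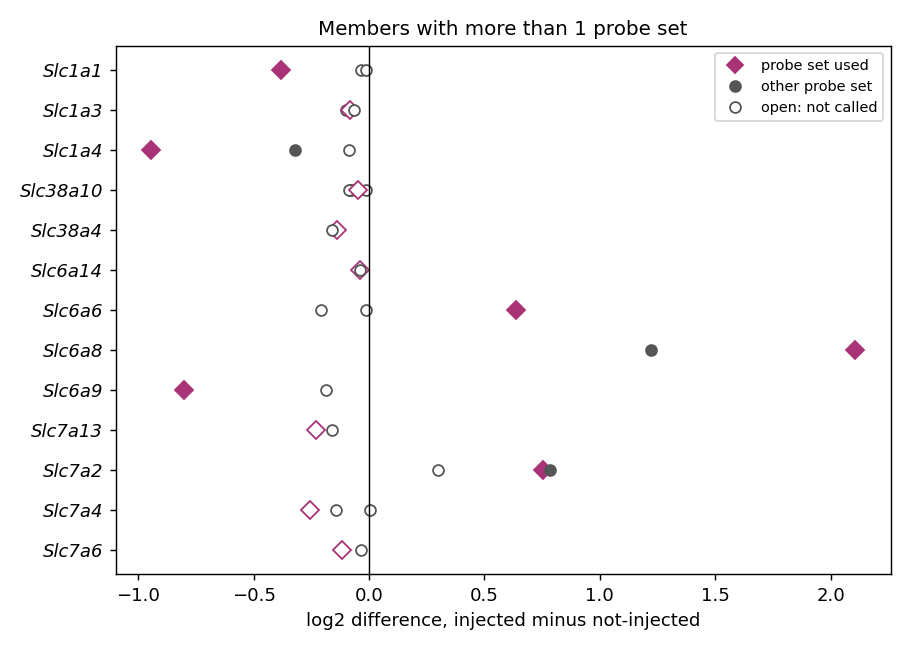
Log2 difference, injected minus not-injected (horizontal axis), of every probe set of the 13 transporter genes with more than 1 probe set (vertical axis). Diamonds are the probe sets used and circles the others, filled where the test was passed; Slc6a8 and Slc7a2 have more than 1 filled symbol on the right, Slc1a4 has 2 on the left, and the others of Slc6a6, Slc6a9 and Slc1a1 are open.

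The heavy chains went different ways. Slc3a1, which brings its light chains to the membrane for uptake of cystine and dibasic amino acids, read 9.69, 8.91 and 9.05 in not-injected livers. In injected livers it read 8.33, 8.43 and 7.96. The groups did not overlap, although not-injected replicate 1 stood above the other two. The fall was 1.97-fold (-0.98 ± 0.21, adjusted p = 0.0136) and passed with any one array left out, but not without variance moderation (adjusted p = 0.092).

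Both known light chains of Slc3a1 were measured. Slc7a9, the cystine and dibasic amino acid exchanger, was lower by 0.44 ± 0.09 (adjusted p = 0.0139). All of its arrays lay below the lower quartile, so the size of that fall is not exact. The call did not hold without not-injected replicate 2 (adjusted p = 0.0563) or injected replicate 1 (0.052), or without variance moderation (0.0675). Slc7a13, which carries aspartate, glutamate and cystine, differed by -0.23 ± 0.07 (adjusted p = 0.0515). With 1 array left out it passed only without injected replicate 2 (-0.27, adjusted p = 0.0246).

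Slc3a2, the heavy chain of most other light chains, read 8.90, 8.84 and 8.77 without injection and 9.23, 9.02 and 9.70 with it. Injected values were all higher, but with wide spread, and the difference of 0.48 ± 0.16 did not pass (adjusted p = 0.0588). With 1 array left out it passed only without injected replicate 2 (0.63, adjusted p = 0.00966), the injected array nearest to the other group. It also passed with array weights (0.0135) and after a filter at the median level (0.046). It did not pass with the replicate number as a block or without variance moderation. Of its light chains, Slc7a5, which exchanges large neutral amino acids, differed by -0.00 with a 95% interval of -0.15 to 0.14 (adjusted p = 0.974). Slc7a8, of like function, gave the same value of -0.00 (adjusted p = 0.976). Slc7a7, which exchanges cationic for neutral amino acids and was picked after its values were seen, differed by 0.40 ± 0.13 (adjusted p = 0.0565). With 1 array left out it passed only without injected replicate 2 (adjusted p = 0.019). Slc7a6 and Slc7a10 read -0.12 (adjusted p = 0.202) and -0.04 (adjusted p = 0.786).

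Slc7a11, the light chain that exchanges cystine for glutamate, is a known target of ATF4, the transcription factor of the amino acid response. Its promoter window is shown because it and that of Slc7a7 were the only ones with TGATGNAA among the members that had a window. The sequence is from RefSeq, GRCm38.p6, minus strand, chr3:50443614-50443863, with both matches in capitals, 66 and 47 bases before the start. This is the most upstream start that had a window. It lies inside the annotated gene span, chr3:50364936-50499087.
Slc7a11: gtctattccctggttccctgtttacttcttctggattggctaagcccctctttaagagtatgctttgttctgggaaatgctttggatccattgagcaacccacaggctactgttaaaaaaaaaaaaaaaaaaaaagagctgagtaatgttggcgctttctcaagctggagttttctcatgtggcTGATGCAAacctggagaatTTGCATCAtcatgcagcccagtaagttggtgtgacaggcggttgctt
Slc7a11 read 4.26, 4.41 and 4.26 without injection and 4.29, 4.41 and 4.30 with it. All values lay below the lower quartile of the arrays, and the difference was 0.02 ± 0.07 (adjusted p = 0.827). Atf4 RNA itself fell by 0.60 ± 0.08 (adjusted p = 0.00225), and ATF4 protein was not measured. A list of 26 genes of the amino acid response and of serine and asparagine synthesis gave 7 that rose and 7 that fell, named below. Promoter windows were found for 28 of the 43 members, 9 of them called; CACGTG occurred in 3, Slc1a6, Slc38a5 and Slc6a3, none of which was called.

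The Slc38a genes, which include the main carriers of glutamine and alanine in hepatocytes, gave no call. Slc38a3, which carries glutamine and histidine, read 12.51, 12.50 and 12.72 without injection and 11.99, 12.46 and 11.89 with it. All injected values were lower, injected replicate 2 by a narrow margin. The difference was -0.46 ± 0.15 (adjusted p = 0.0552). With 1 array left out it passed only without injected replicate 2 (-0.63, adjusted p = 0.00172), the injected array nearest to the other group. It also passed with array weights (0.0066), with an intensity trend (0.0458) and after a filter at the median level (0.0425). It did not pass with the replicate number as a block or without variance moderation. Slc38a4, a liver carrier of neutral amino acids, read 13.36, 13.34 and 13.47 without injection and 13.18, 13.43 and 13.15 with it, so the groups overlapped. The difference was -0.14 with a 95% interval of -0.35 to 0.07 (adjusted p = 0.283). With 1 array left out it passed only without injected replicate 2 (-0.22, adjusted p = 0.047). Slc38a2, which is induced when amino acids are scarce, differed by -0.10 with an interval of -0.31 to 0.10 (adjusted p = 0.418). Slc43a3, a carrier of purine bases rather than amino acids, differed by 0.27 ± 0.09 (adjusted p = 0.0625). With 1 array left out it passed only without injected replicate 2 (0.34, adjusted p = 0.0223).

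**Figure D4:**
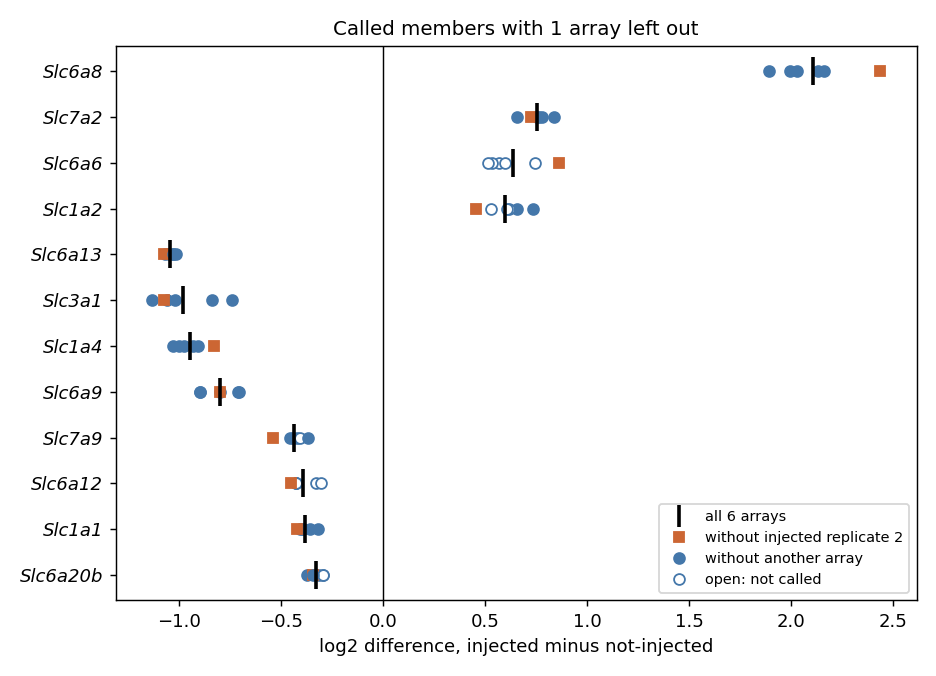
Log2 difference, injected minus not-injected (horizontal axis), of the 12 called transporter genes (vertical axis) with all 6 arrays (tick) and with 1 array left out (points); squares are without injected replicate 2, and open symbols did not pass. Slc6a13, Slc6a8, Slc7a2, Slc1a4, Slc6a9, Slc3a1 and Slc1a1 stay filled throughout, and Slc6a6 is filled only without injected replicate 2.

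Genes of amino acid handling outside these families were read beside them. Of 43 genes of amino acid breakdown 22 fell and 2 rose (median -0.28). This was 55.8% called, beside 28.1% of all genes (13.9% lower). The separate fit of genes with a mean at or above the median called 45.7%. Without variance moderation 12 fell, and 13 fell without not-injected replicate 2 or without replicate 3 of that group. Tat, which starts tyrosine breakdown, fell by 1.45, and Kmo, of tryptophan breakdown, by 0.80. Dld, a subunit of several dehydrogenase complexes, rose by 0.51 and Bckdhb, of branched-chain breakdown, by 0.29; 1 rose without not-injected replicate 2 or injected replicate 1. Of 14 genes of glutamine, glutamate and urea handling, 1 rose, Gpt2 (0.33), an alanine aminotransferase, and 3 fell (median -0.04). The 28.6% called was near the background of 28.1%. Nags, which makes the activator of the urea cycle, fell by 0.78, and Glud1, glutamate dehydrogenase, by 0.71. The call of Gpt2 was lost without not-injected replicate 2 or injected replicate 3, and without injected replicate 2 there were 2 higher.

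Genes that sense amino acids at mTORC1 gave 8 higher and 1 lower of 24 (median 0.06). This was 37.5% called, beside 14.2% higher and 13.9% lower of all genes. The separate fit of genes at or above the median called 45.7% in either direction. Without variance moderation 5 were higher and 2 lower. Flcn, a regulator of the Rag GTPases, rose by 1.10 and Rragc, one of those GTPases, by 0.97, while Sec13 fell by 0.33. Of 19 genes listed as other amino acid or lysosomal efflux transporters, 4 rose and 5 fell (47.4% called, median -0.10). The list also holds Slc17a1, Slc17a2, Slc17a3 and Cltrn, which are not amino acid carriers. The 47.4% stood beside 28.1% of all genes, and beside 45.7% in the separate fit of genes at or above the median. Ctns, the lysosomal cystine exporter, rose by 1.04 and Slc15a4, a lysosomal histidine and peptide carrier, by 0.89. Slc17a2 and Slc17a3, which carry phosphate and organic anions, fell by 0.55 and 0.88. The rest that rose were Slc15a3 (0.45) and Slc66a1 (0.41). The rest that fell were of the Slc25a family, Slc25a15 (-0.30), Slc25a38 (-0.28) and Slc25a13 (-0.23). In the whole list the number that fell was 2 when not-injected replicate 2 or 3 or injected replicate 3 was left out. It was 3 without injected replicate 1.

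In the list of the amino acid response and serine and asparagine synthesis, 7 of 26 genes rose and 7 fell (53.8% called, median -0.03). Those that rose were Atf3, Trib3, Cebpb, Eif2ak3, Nupr1, Eif4ebp1 and the synthesis gene Psat1. Those that fell were Atf4, Atf5 and the synthesis genes Phgdh, Psph, Shmt2, Cth and Cbs. Over all genes 28.1% were called, and 45.7% in the separate fit of genes with a mean at or above the median. Nupr1, a stress-induced chromatin protein, rose by 2.94 and Eif2ak3, the kinase PERK, by 1.59, while Cbs, of cysteine synthesis, fell by 0.95. Without not-injected replicate 2 or 3, 3 fell, and without injected replicate 1 or 3, 4 fell. Of 18 cytosolic aminoacyl-tRNA synthetases 1 rose, Lars (0.72), and 6 fell (38.9% called, median -0.12), of which Tars fell by 0.97 and Farsb fell by 0.65. Lars did not pass without not-injected replicate 2 or 3 or injected replicate 1, and without injected replicate 2 there were 2 higher.

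Of 12 glutathione genes 1 rose, the dipeptidase Cndp2 (0.89), and 4 fell (41.7% called, median -0.18), with Anpep lower by 0.58 and Gclc, the catalytic subunit of the first synthesis step, by 0.38. The number that fell was 1 without not-injected replicate 2, and 2 without not-injected replicate 1 or 3 or injected replicate 1 or 3; without injected replicate 2, 2 rose. Of 13 periportal genes 1 rose and 5 fell (46.2% called, median -0.22). The glutathione and periportal shares stood beside 28.1% of all genes. The separate fit of genes with a mean at or above the median called 45.7%. Aldh1b1, an aldehyde dehydrogenase, rose by 1.45, and Pck1, of gluconeogenesis, fell by 1.14. Without variance moderation the number that fell was 3 in the other transporters, 4 in the amino acid response and synthesis list and 2 in the glutathione genes. None then rose among the synthetases, the glutathione genes or those of glutamine and urea. That setting called 15.2% of all genes. The lists share arrays and no difference between a list and other genes was tested. The list shares are from the fit of all genes and the lists include genes below the median level. The 45.7% is therefore not a like share.

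**Figure D5:**
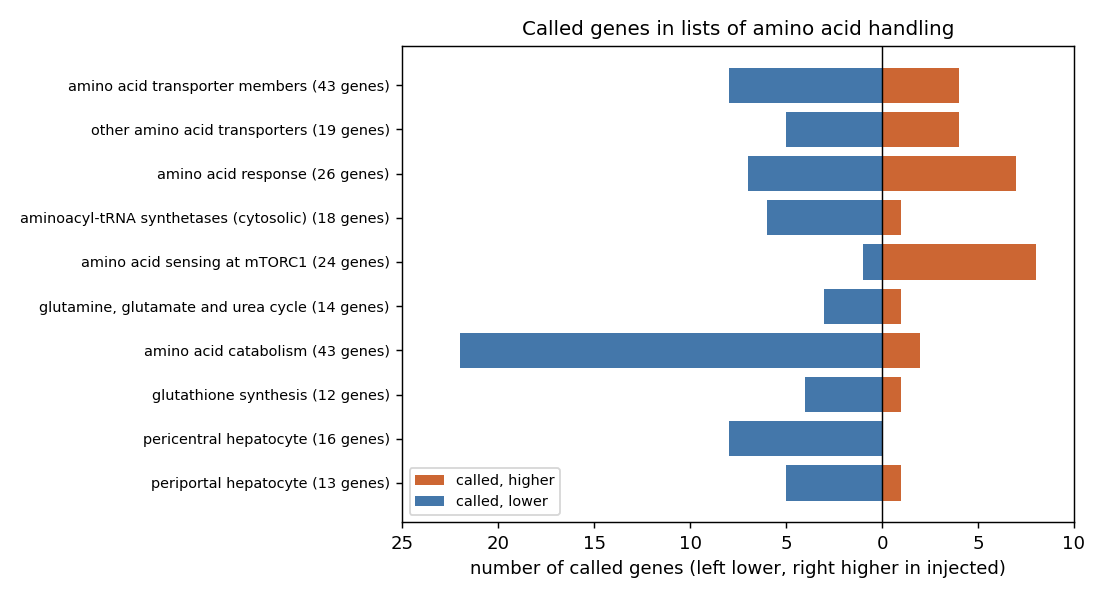
Number of genes called higher (bars to the right) and lower (bars to the left) in injected livers in each list of amino acid handling genes (vertical axis). The amino acid response list includes genes of serine and asparagine synthesis. The longest bar is the 22 lower genes of amino acid breakdown, and genes of amino acid sensing at mTORC1 have 8 higher and 1 lower.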

How the data were processed

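Livers of 6 mice were measured, 1 array each. The authors deposited log2 values per probe set, and the submitters' processing notes name affy and RMA without versions; filters are not given in the sources used here. RMA equalises arrays, which hides a shift common to all transcripts and compresses low values. The number of arrays limits the precision.

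Of 22690 probe sets (64 controls), 20380 had 1 symbol. Each gene was read from its brightest probe set, by the mean of the 6 arrays. Differences were tested with limma 3.58.1 in R 4.3.3 (lmFit, eBayes, two-sided), unpaired, with Benjamini-Hochberg adjustment over 12393 genes and calls at an adjusted p under 0.05. The scripts were tested on simulated data; Python 3.11.15 with pandas 2.3.3 and matplotlib 3.10.9 made tables and plots.

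Called members were named, those changed 1.5-fold or more with every array, as were the uncalled member with the smallest p in each family, members with a known role in liver, and for each list the 2 called genes with the smallest p in each direction. The rule for members uses symbols alone, but the families and the lists were chosen with earlier results of these data known. No column of other samples was present. Deviations of same-numbered arrays from their group means correlated at 0.14, 0.06 and 0.01. Differently numbered arrays were not compared, so these values cannot decide whether same-numbered arrays were paired.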

Additional observations from a re-analysis of the deposited data

How the results depend on the processing

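The number of higher members was 4 with all arrays, 7 with array weights, 2 without variance moderation and 2 to 7 with 1 array left out. The number of lower members was 8, and was 13 with array weights, 5 after a filter at the median level, 5 without variance moderation and 5 to 14 with 1 array left out. With the replicate number as a block 11 members were called, without Slc6a12. The labels do not say that same-numbered arrays are paired. Over all genes 3486 were called, 1881 without variance moderation and 1973 to 4378 with 1 array left out. The filter at the median level keeps 15 members, of which 6 were higher and 5 lower (73.3% called, beside 45.7% of genes). Family medians were then 0.60 for Slc1a, which is 1 gene, Slc1a2, -0.39 for the 5 Slc6a genes and 0.25 for the 2 Slc7a genes, since fewer genes enter. The Slc7a median was -0.10 with array weights and -0.108 to -0.0375 with 1 array left out, and that of Slc6a -0.115 to -0.0127. The other two probe sets of Slc6a6 read -0.013 and -0.21. With 1 array left out Slc7a11 ranged from -0.0151 to 0.0741 and Slc7a5 from -0.0318 to 0.0211, so neither has a direction. Apart from these changes the cause of the moves was not tested. Values under the lower quartile limit what can be said of 13 members.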
